A study of Mus musculus with 18 samples.

Results

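The lemur tyrosine kinases *Aatk*, *Lmtk2* and *Lmtk3* were followed through alternative splicing and transcript abundance in the embryonic mouse brain. The family was taken by gene symbol and holds 3 of the 23038 gene symbols in the count table and 6 of the 1991 events in the splicing table. The family was chosen by ΔI, since *Lmtk3* has some of the largest values in *Nova2-/-* cortex, so the members' values in that comparison are a description: no p is given for them there, and a call at the threshold is counted without being read as support. ΔI is the inclusion fraction of an alternative exon in wild-type minus that in knockout, and a value below 0 means more inclusion in the knockout. CD1 mice were taken on embryonic day 18.5. The cortex samples form 4 groups of 3: *Nova2-/-* mice, their wild-type littermates, *Nova1-/-* mice, and the wild-type littermates of those. Midbrain and hindbrain of *Nova1-/-* and wild-type mice entered the splicing table only. Both knockouts were constitutive, so every cell of the embryo carried the null allele. The *Nova2* allele was made with a targeting cassette. The authors describe it as meant to replace the first exon and, in their methods, as inserted before the start codon. No drug or other treatment is given in the labels.

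The lemur tyrosine kinases are membrane-anchored kinases with a long cytoplasmic tail, and despite their name they phosphorylate serine and threonine. They are abundant in the nervous system. AATK (LMTK1) binds the p35 activator of CDK5 and acts on the recycling endosomes of growing axons and dendrites. LMTK2 binds protein phosphatase 1, its inhibitor-2 and the motor protein myosin VI. LMTK3 is a neuronal member that has been linked to NMDA receptor and KCC2 traffic. NOVA1 and NOVA2 are neuronal RNA-binding proteins that recognise clusters of the motif YCAY, where Y is C or T in DNA letters, and their effect on an exon depends on where the motifs lie.

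All 6 splicing events of the family belonged to *Lmtk3*, and neither *Aatk* nor *Lmtk2* had an event in the table, in which 505 of the 23038 count-table symbols (2.19%) had one. The table holds only events past 0.1 in |ΔI| and 0.1 in FDR in *Nova2-/-* cortex with YCAY in a NOVA binding cluster, so a gene missing from it may still be spliced differently. The *Lmtk3* events are 3 descriptions of a cassette exon and 3 of a mutually exclusive pair at the same place, with 2 distinct spans, and they are not independent of each other. The cassette is a 109-nt exon at chr7:53043016-53043124 (mm9, plus strand), inside the gene at chr7:53039108-53059514. It lies between a 77-nt coding exon at chr7:53042764-53042840 and a 119-nt coding exon at chr7:53043274-53043392. In the mm9 gene annotation the 109-nt exon occurs in a transcript classed as subject to nonsense-mediated decay, the pathway that removes transcripts with an early stop codon, and not in the main coding transcript, Lmtk3-001.

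The exon and its surroundings are shown because the *Lmtk3* ΔI values refer to them. Sequences are the mm9 reference on the transcribed strand, 5′ to 3′, and YCAY (TCAT, TCAC and both of these with a leading C in place of T) stands in capitals in the introns and the alternative exon. Motifs were sought on the transcribed strand alone and were allowed to overlap.
Intron before the exon, chr7:53042841-53043015: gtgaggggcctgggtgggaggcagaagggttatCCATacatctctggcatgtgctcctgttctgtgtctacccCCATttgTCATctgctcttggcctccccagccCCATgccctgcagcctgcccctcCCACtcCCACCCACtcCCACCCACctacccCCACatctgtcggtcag
Alternative exon, chr7:53043016-53043124: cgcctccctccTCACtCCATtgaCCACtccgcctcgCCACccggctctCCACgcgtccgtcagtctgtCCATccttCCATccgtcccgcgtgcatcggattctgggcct
Intron after the exon, chr7:53043125-53043273: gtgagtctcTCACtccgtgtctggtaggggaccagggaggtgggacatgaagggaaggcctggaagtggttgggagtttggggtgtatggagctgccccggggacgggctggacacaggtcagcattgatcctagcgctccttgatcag

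The motifs lay on the upstream side and inside the exon. The 175-nt intron before the exon held 10 motifs, or 5.71 per 100 nt, and the exon itself held 7, or 6.42 per 100 nt. The 149-nt intron after it held 1 motif, the 77-nt exon upstream held 0 and the 119-nt exon downstream held 1. The motif nearest to the 3′ splice site in the intron began 17 nt before the exon.

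**Figure D1:**
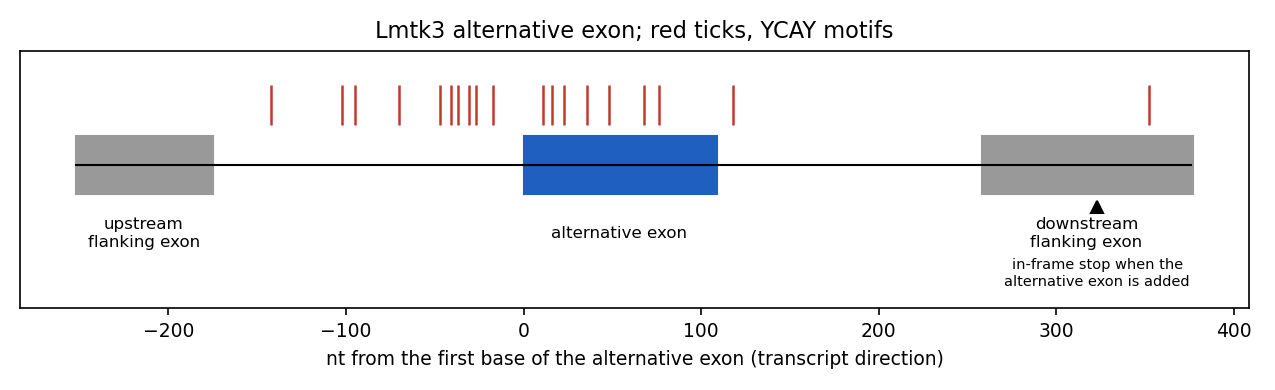
Map of the Lmtk3 alternative exon (blue) with its flanking exons (grey) and introns (line), in nt from the first base of the exon, with each YCAY motif as a red tick and the stop codon met when the exon is added as a black triangle. Of the 19 motifs in the 629 nt, 17 lie in the intron before the exon or in the exon itself.

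The same count was made over the cassette exons of the splicing table that could be placed on the annotation from their event names. Of 941 cassette events 448 could be placed, and they gave 366 distinct exons with that of *Lmtk3* among them. The shares below cover these exons only. Within 200 nt of the *Lmtk3* exon on each side there were 18 motifs, or 3.54 per 100 nt, beside a median of 1.87. Windows at least as dense were found at 4.10% of these exons, a share that depended on the window: it was 0.546% with 100 nt of flank and 21.0% with 400 nt. Every one of the windows (100%) held at least 1 motif, so the presence of a motif alone sets no exon apart. Inside the exon, the median was 1.42 motifs per 100 nt, and 69.4% of the exons held a motif. These exons entered the table in part by a motif in a binding cluster, so the shares describe the table and are not a test. The length of the *Lmtk3* exon is not a multiple of 3, which held for 108 of the 366 exons (29.5%).

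Adding the exon changes the reading frame. Read from the start codon of Lmtk3-001, the transcript without the exon has 1450 codons before its stop, which lies in the last of 16 exons. With the 109-nt exon added, a stop follows after 230 codons, in the next exon and with 10 further exons after it. That stop is printed in capitals below, at bases 66 to 68 of the downstream exon.
Downstream exon, chr7:53043274-53043392: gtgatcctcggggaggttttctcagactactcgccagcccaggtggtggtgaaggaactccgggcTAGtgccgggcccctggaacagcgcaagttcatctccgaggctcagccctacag
If the 109-nt exon takes the place of the 77-nt exon, the stop lies inside the alternative exon at chr7:53043036-53043038, after 153 codons. With neither exon, the stop at the downstream exon is met after 168 codons. Of these 4 forms only the form with the 77-nt exon and without the 109-nt exon reads through to the end of the coding sequence.

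*Aatk* and *Lmtk2* share the exon layout around this place. In each of the 3 genes a 119-nt exon is followed by an 88-nt exon, and it is preceded by an exon of 80 nt in *Aatk*, 74 nt in *Lmtk2* and 77 nt in *Lmtk3*. The intron between the first pair, which in *Lmtk3* holds the alternative exon, is 296 nt in *Aatk*, 3996 nt in *Lmtk2* and 433 nt in *Lmtk3*. It holds 5 motifs (1.69 per 100 nt) in *Aatk*, 64 motifs (1.60 per 100 nt) in *Lmtk2* and 18 motifs (4.16 per 100 nt) in *Lmtk3*. The densities of *Aatk* and *Lmtk2* are thus close to each other and below that of *Lmtk3*.

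In *Nova2-/-* cortex the alternative exon was included far more than in wild-type. The 3 cassette events had ΔI of -0.826, -0.788 and -0.788, all toward inclusion in the knockout, and they ranked 5th and joint 8th by |ΔI| among the 1991 events. The 3 mutually exclusive events had ΔI of 0.865, 0.865 and 0.490. The table does not say which exon of the pair their inclusion refers to, so their sign is not read here. The median |ΔI| over all events of the table was 0.223. By the event with the largest |ΔI|, *Lmtk3* stood second among genes, after *Dab1* (-0.985), a reelin signalling adaptor, and before *Nrcam* (0.838), an axonal adhesion molecule, *Cyb5r4* (0.817), a reductase, and *Grik2* (-0.785), a kainate receptor subunit. These values chose the family, and each is 1 value per comparison, with no value for single mice.

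In *Nova1-/-* mice the same events barely moved, and these comparisons played no part in the choice. In cortex the |ΔI| of the 6 events lay between 0.000403 and 0.0041, and in midbrain and hindbrain between 0.00286 and 0.00903. None of the 6 passed the thresholds in either, and the deposited FDR was 1 for all of them. Of all 1991 events, 18 (0.904%) passed in *Nova1-/-* cortex and 119 (5.98%) in *Nova1-/-* midbrain and hindbrain, with median |ΔI| of 0.0341 and 0.0378. An absence of calls for 6 events is thus near the background of these tables, and the events' |ΔI| lay below the median in both. No ΔI of single mice was used, the read depth behind ΔI is unknown here, and no difference between the knockouts in ΔI was tested.

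**Figure D2:**
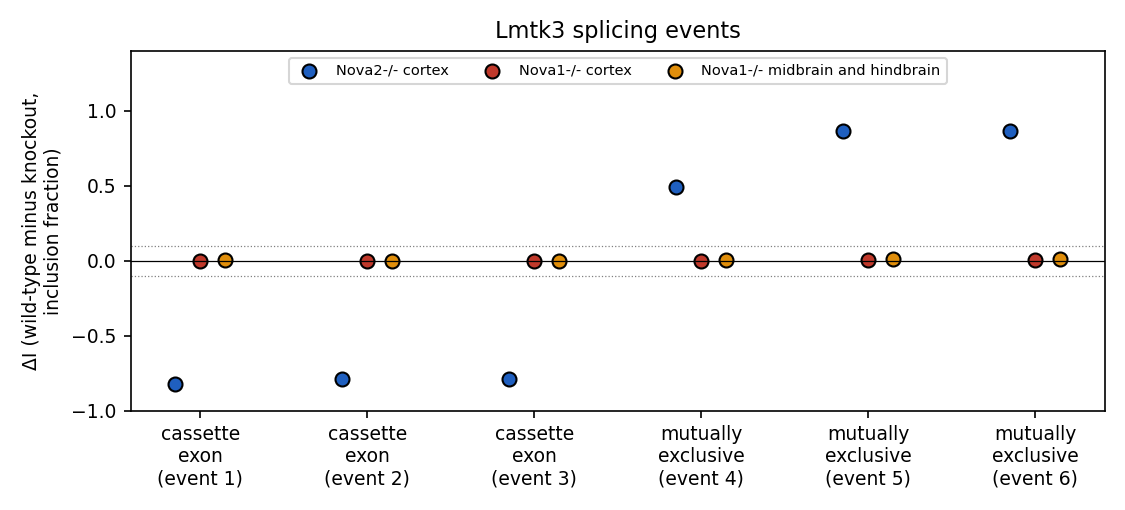
ΔI (wild-type minus knockout inclusion fraction) of the 6 Lmtk3 events in Nova2-/- cortex (blue), Nova1-/- cortex (red) and Nova1-/- midbrain and hindbrain (orange), with 1 value per event and comparison, where dotted lines mark 0.1 and -0.1. The blue points lie between -0.826 and 0.865, and all red and orange points lie within 0.00903 of 0.

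Abundance rests on estimated (expected) counts per gene, and each cortex library held 16518172 to 31362018. Levels are given as CPM, counts scaled to a common library total, on TMM-scaled library sizes, with the SD over mice. *Nova1* was almost absent from the mice labelled *Nova1-/-*, at 0.119 ± 0.0888 CPM (SD, n = 3) against 62.9 ± 18.7 CPM in their wild-type littermates. *Nova2* stood at 18.8 ± 2.36 CPM in *Nova2-/-* against 34.5 ± 5.56 CPM in wild-type, a log2 fold change of -0.87 ± 0.14 (SE), so *Nova2* counts remained in the knockout. Its adjusted p was 0.0373 (edgeR's quasi-likelihood test, Benjamini-Hochberg adjusted), and the call was lost on leaving out any 1 mouse other than wild-type replicate 3, with log2 fold changes from -0.98 to -0.80 in those fits. By Western blot, the authors reported NOVA2 protein to be absent from the cortex of newborn *Nova2-/-* mice. Wild-type replicate 2 of the *Nova2* litters was the shallowest library and had counts for 21791 genes, against 18397 to 19396 in the others.

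*Lmtk3* was lower in *Nova2-/-* cortex than in any other group. The *Nova2-/-* mice had 652, 655 and 851 *Lmtk3* counts, or 29.0, 29.4 and 37.6 CPM. Their wild-type littermates had 1649, 1280 and 2302 counts, or 65.1, 75.8 and 77.2 CPM. The highest *Nova2-/-* mouse was below the lowest mouse of each other group. The share of all genes whose groups lie apart in this way was not counted, so nothing is read from it. The log2 fold change was -1.18 ± 0.13 (SE), a level 2.26-fold lower than in wild-type. It was the one of the 3 members called at an adjusted p below 0.05 in this comparison, where 166 of 15691 genes (1.06%) were called, and nothing is read from that count because the comparison chose the family. The call was lost without *Nova2-/-* replicate 1 or 2, at -1.11 and -1.13. A lower log2 fold change was seen in 0.65% of the genes. The change in *Nova2-/-* minus that in *Nova1-/-* was -1.33 ± 0.19 (SE) on the log2 scale, in a fit where 296 of 16210 genes (1.83%) were called, *Lmtk3* alone among the members.

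*Lmtk2* and *Aatk* in the same mice did not separate by genotype. *Lmtk2* was at 122.0, 125.4 and 139.1 CPM in *Nova2-/-* and at 120.9, 119.1 and 133.4 CPM in wild-type. *Aatk* was at 45.2, 49.9 and 58.0 CPM in *Nova2-/-* and at 45.2, 51.5 and 58.8 CPM in wild-type. Both pairs of groups overlapped. The log2 fold changes were 0.05 ± 0.08 (SE) for *Lmtk2* and -0.02 ± 0.13 (SE) for *Aatk*, and neither gene was called.

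**Figure D3:**
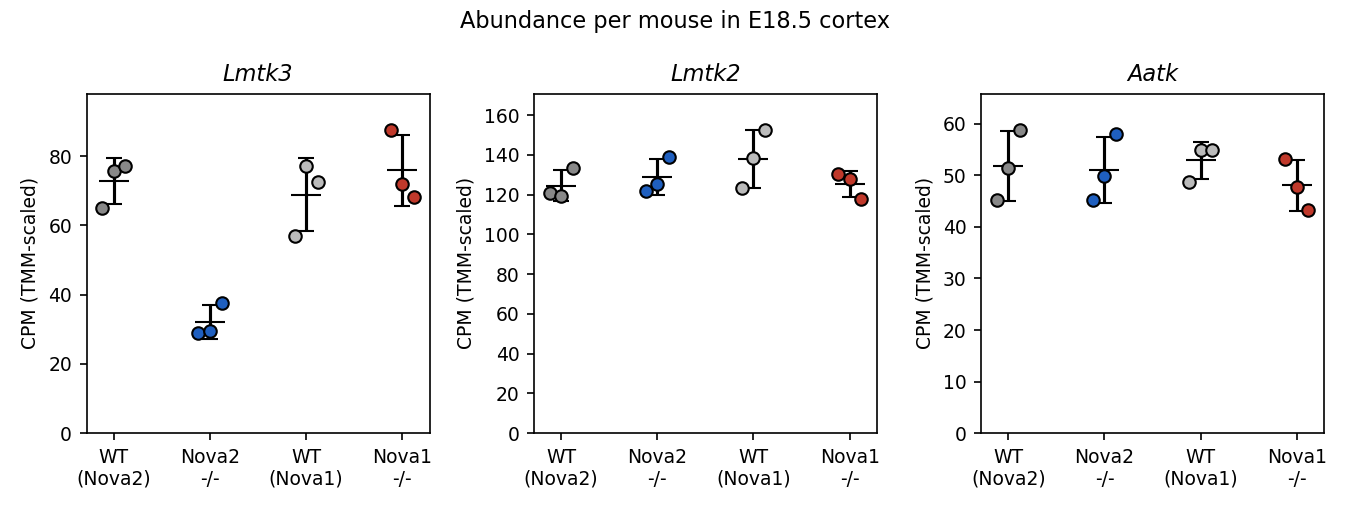
Abundance in TMM-scaled CPM of Lmtk3, Lmtk2 and Aatk in each mouse (points) of the 4 cortex groups, with the mean and SD (bars, n = 3). For Lmtk3 the Nova2-/- mice lie between 29.0 and 37.6 CPM and all other mice between 57.0 and 87.6 CPM, while for Lmtk2 and Aatk all groups overlap.

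The *Nova1-/-* comparison was independent of the choice of the family, and none of the 3 members passed the test in it. *Lmtk3* was at 87.6, 71.8 and 68.3 CPM in *Nova1-/-* and at 57.0, 77.2 and 72.5 CPM in wild-type littermates, and the groups overlapped. Its log2 fold change was 0.14 ± 0.12 (SE), with an adjusted p of 0.832 by the same edgeR test and a 95% interval from -0.18 to 0.46. *Lmtk2* went from 123.1, 138.3 and 152.6 CPM in wild-type to 130.2, 128.0 and 117.9 CPM in *Nova1-/-*, a log2 fold change of -0.14 ± 0.08 (SE, adjusted p = 0.724 by edgeR). *Aatk* went from 48.8, 55.0 and 54.8 CPM to 53.2, 47.7 and 43.4 CPM, a log2 fold change of -0.14 ± 0.08 (SE, adjusted p = 0.756 by edgeR). Few genes passed here at all, 2 of 15901 (0.0126%) by edgeR and 34 by DESeq2. With all 6 mice, no member passed by either tool or had an unadjusted p below 0.05 by edgeR, and the intervals leave room for small changes, with lower bounds of -0.37 on the log2 scale for *Aatk* and -0.35 for *Lmtk2*. With 1 mouse left out, the log2 fold changes ranged from -0.21 to -0.069 for *Aatk*, from -0.21 to -0.061 for *Lmtk2* and from 0.020 to 0.23 for *Lmtk3*, and none passed after adjustment. An unadjusted p below 0.05 was reached by *Aatk* and *Lmtk2* without wild-type replicate 4 and by *Aatk* without *Nova1-/-* replicate 1.

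Wild-type cortex of the *Nova1* litters against that of the *Nova2* litters was a further comparison. Its *Nova2*-litter mice are also the reference of the comparison that chose the family, so it is not independent of the choice. None of the members passed the test or had an unadjusted p below 0.05, by edgeR, and DESeq2 called none. The log2 fold changes of the *Nova1* litters over the *Nova2* litters were -0.08 ± 0.12 (SE) for *Lmtk3*, 0.15 ± 0.09 for *Lmtk2* and 0.03 ± 0.11 for *Aatk*, with adjusted p of 0.763, 0.392 and 0.921 by edgeR. In the same comparison 483 of 15918 genes (3.03%) were called.

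Per kb of exon, *Lmtk2* had the highest level of the family in wild-type cortex and *Aatk* the lowest. In the wild-type mice of the *Nova2* litters, *Lmtk2* was at 15.3 ± 0.96, *Lmtk3* at 12.7 ± 1.16 and *Aatk* at 7.24 ± 0.95 CPM per kb of annotated exon (SD, n = 3). In those of the *Nova1* litters the levels were 17.0 ± 1.81 for *Lmtk2* and 7.39 ± 0.495 CPM per kb for *Aatk*, and *Lmtk3* was at 9.92, 13.4 and 12.6 CPM per kb in the single mice. *Aatk* lay apart from the other two in both. With the length of the longest transcript in place of all annotated exons, *Lmtk3* came to 14.4 CPM per kb in the *Nova2* litters, within the spread of *Lmtk2* at 15.3. In *Nova1-/-* the order was the same, at 15.5 ± 0.81, 13.2 ± 1.79 and 6.72 ± 0.685 CPM per kb, and the spreads of *Lmtk2* and *Lmtk3* overlapped. In *Nova2-/-* the order changed, with *Lmtk2* at 15.9 ± 1.11, *Aatk* at 7.13 ± 0.90 and *Lmtk3* at 5.57 ± 0.845 CPM per kb, where *Aatk* and *Lmtk3* differed by less than the sum of their SDs. The gene *Gm5897* lies on the opposite strand over 730 nt of *Lmtk3*, and the strand setting of the counts is not given in the sources used here.

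Across mice, Pearson's r of log2 CPM was 0.751 for *Aatk* and *Lmtk2*, 0.203 for *Aatk* and *Lmtk3* and 0.158 for *Lmtk2* and *Lmtk3* over the 12 cortex samples, with the lower *Lmtk3* of the *Nova2-/-* mice among the points. After the mean of each group was subtracted, a step added after seeing the data, r was 0.796, 0.875 and 0.771 in the same order, so within groups the members rose and fell together from mouse to mouse. The points share their libraries and scaling, and these values are a description. Among 11900 genes with a mean of at least 5 CPM, the genes most like *Lmtk3* included *1500002O20Rik* (r = 0.975) and *Tmem158* (0.971). *Tmem158*, a transmembrane protein, had mean levels of 26.5 CPM in the wild-type mice of the *Nova2* litters, 19.99 in *Nova2-/-*, 26.7 in wild-type of the *Nova1* litters and 27.2 in *Nova1-/-*. The genes most like *Aatk* were *Tspan9* (0.947), *Chrm1* (0.917), a muscarinic receptor, and *Mink1* (0.909), a kinase. For *Lmtk2* they were *Por* (0.904), *Grip2* (0.903), a glutamate receptor-binding scaffold, and *Pnpla6* (0.894).

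Among the 505 genes with a splicing event and a tested abundance, 19 (3.76%) reached an adjusted p below 0.05 for abundance in *Nova2-/-*, of which 9 were lower. Over all 15691 genes tested the share was 1.06%. Whether genes with an event differ from the rest in count level was not looked at, and the number of genes called moved widely with 1 mouse left out. Nothing is read from the difference in share. *Lmtk3* had the lowest log2 fold change, followed by *Rab12* (-0.90), a small GTPase, and *Cacna2d3* (-0.77), a calcium channel subunit. With a fold change of at least 1 on the log2 scale as well, 3 genes were left, namely *Lmtk3*, *Scn9a* (1.06), a sodium channel, and *Stx2* (1.35), a syntaxin. Of the 62 genes with an event past 0.5 in |ΔI|, 5 were called and the median log2 fold change was -0.01. Both axes come from the comparison that chose *Lmtk3*, so this is a description.

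**Figure D4:**
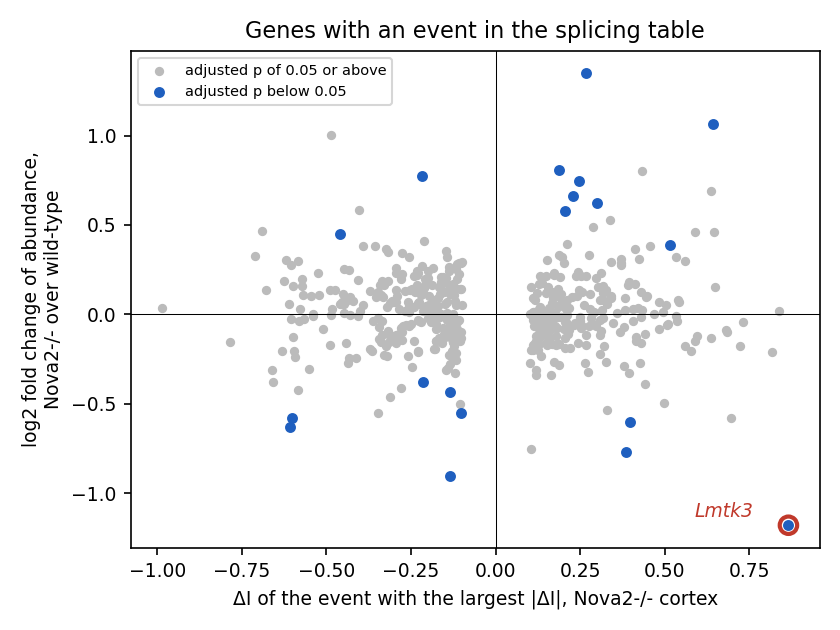
ΔI of the event with the largest |ΔI| of each gene against the log2 fold change of its abundance, both in Nova2-/- cortex, for the 505 genes tested, with genes at an adjusted p below 0.05 in blue and Lmtk3 circled. Most genes lie near 0 in abundance whatever their ΔI, and Lmtk3 lies at 0.865 and -1.18. That ΔI is of a mutually exclusive event whose sign is not read, and the cassette events of Lmtk3 had ΔI of -0.826 and -0.788.

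Genes that work with these kinases were taken as a list of 27. It holds CDK5 with its activators and GSK3B (4 genes), recycling-endosome traffic and motors (8), protein phosphatase 1 with inhibitor-2 and SPAK (5), and channels, receptors, transporters and nuclear proteins described as clients (10). In *Nova2-/-*, 0 of the 26 tested passed the edgeR test after adjustment, 7 had an unadjusted p below 0.05 and DESeq2 called 1. Over all genes tested, 166 of 15691 (1.06%) were called by edgeR and 3005 had an unadjusted p below 0.05, and nothing particular to the list is read from these counts. Their median log2 fold change was -0.05, against 0.01 over all genes tested. The smallest p-values belonged to *Tbc1d9b*, a Rab11 GTPase-activating protein that AATK acts through, at 0.37 ± 0.08 (SE, adjusted p = 0.0692 by edgeR), and to *Slc12a2*, the chloride importer NKCC1, at 0.20 ± 0.07 (SE, adjusted p = 0.190 by edgeR). Without wild-type replicate 3, 3 of the list were called. Of the fits with 1 mouse left out, that one called the most genes over all, and nothing particular to the list is read from it. In *Nova1-/-*, 0 of 27 passed by edgeR or DESeq2 and 0 had an unadjusted p below 0.05, with *Ehd1*, a recycling-endosome protein, at -0.13 ± 0.09 (SE) and *Ppp1r2*, inhibitor-2, at -0.07 ± 0.06 (SE) the nearest.

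Between the wild-type cortices 1 of the 27 (3.70%) passed, near the share of 483 of 15918 (3.03%) over all genes tested. It was *Grin2b*, an NMDA receptor subunit, with 391.6 ± 34.8 CPM in the *Nova1* litters and 272.3 ± 30.2 CPM in the *Nova2* litters (SD, n = 3). Its log2 fold change was 0.52 ± 0.10 (SE, adjusted p = 0.0331 by edgeR), and DESeq2 called 5 of the list. The call was lost without any 1 mouse other than wild-type replicate 3 of the *Nova2* litters, without which 10 of the list were called. Over all genes the number called also rose by DESeq2 and moved widely with 1 mouse left out. Nothing particular to the list is read from these counts. Of the 27 genes, 3 had events in the splicing data, beside 505 of 23038 (2.19%) over all symbols. All symbols include genes too low to be tested for abundance, so the shares are not alike and nothing particular to the list is read from them. The largest event of *Grin1*, the obligatory NMDA receptor subunit, had ΔI of -0.320 in *Nova2-/-* cortex and -0.128 in *Nova1-/-* midbrain and hindbrain, with a deposited FDR of 0.001 there. *Smad2*, a signalling factor, reached 0.214 and *Klc1*, a kinesin light chain, reached 0.206 in *Nova2-/-* cortex, and neither passed in *Nova1-/-*.

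The tissue carried general markers of neurons and differed between groups in genes of the meninges. The summed level of 7 neuronal genes was 2889 to 3154 CPM in *Nova2-/-* and 3030 to 3474 CPM in their wild-type littermates, with a median log2 fold change of -0.07, and none of the 7 was called by edgeR or DESeq2 or had an unadjusted p below 0.05 by edgeR. The summed level of 12 genes of meningeal fibroblasts was 1160 to 1277 CPM in *Nova2-/-* and 269.6, 337.8 and 739.8 CPM in wild-type littermates. By edgeR 2 of 12 were called higher, *Col1a1* at 1.498 and *Dcn* at 1.34. All 12 had a log2 fold change above 0, with a median of 1.34. Of them, 10 had an unadjusted p below 0.05 by edgeR and DESeq2 called 5. The 6 genes of endothelium summed to 229.5 to 239.0 CPM against 149.3 to 192.2 CPM, with *Kdr* called higher by edgeR at 0.78. All 6 were above 0, 4 had an unadjusted p below 0.05 by edgeR and DESeq2 called 2. Over all 15691 genes tested, edgeR called 166 (1.06%) and 3005 had an unadjusted p below 0.05. None of these edgeR calls of meningeal and endothelial genes held without any 1 mouse other than wild-type replicate 3. Without that replicate all 12 meningeal genes and 4 of 6 endothelial genes were called and *Lmtk3* was at -1.13. Of the fits with 1 mouse left out, that one also called the most genes over all. In that fit 1 of the 7 neuronal genes was also called and 4 had an unadjusted p below 0.05, and 2 of 6 oligodendrocyte-lineage genes were called. The 6 genes of microglia summed to 55.3 to 65.4 CPM against 43.7 to 50.7 CPM, with 0 called by edgeR, 1 at an unadjusted p below 0.05 and 1 called by DESeq2. Of 6 oligodendrocyte-lineage, 7 radial glia and astrocyte and 4 erythroid genes, 0 were called by edgeR or DESeq2, and 1, of the oligodendrocyte lineage, had an unadjusted p below 0.05. No gene of these lists was at 0 in all mice of any group. In the wild-type mice of the *Nova1* litters the meningeal sum was 1085 to 1399 CPM, near that of *Nova2-/-*, while *Lmtk3* was at 57.0 to 77.2 CPM. The neuronal sum was 3172 to 3214 CPM in the same wild-type mice and 3203 to 3425 CPM in *Nova1-/-*. All *Nova2-/-* mice were below both of these ranges. The part of these genes in the *Lmtk3* difference was not tested beyond these values. In bulk tissue, fewer cells of a type and less RNA per cell cannot be told apart.

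**Figure D5:**
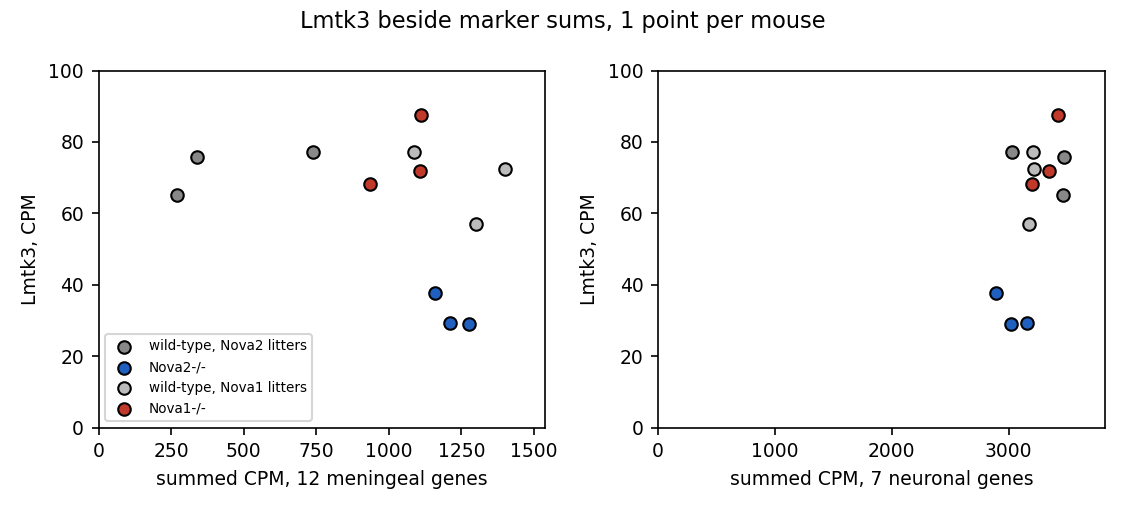
Lmtk3 (CPM) against the summed CPM of 12 meningeal genes (left) and of 7 neuronal genes (right), with 1 point per mouse coloured by group. The Nova2-/- mice share their meningeal range with the Nova1 litters and lie lowest in Lmtk3, at 29.0 to 37.6 CPM. In the neuronal sum they lie at 2889 to 3154 CPM, below all mice of both Nova1 groups, at 3172 to 3425 CPM. Their wild-type littermates, at 3030 to 3474 CPM, overlap them in that sum.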

How the data were processed

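The authors sequenced ribosome-depleted total RNA as paired-end reads, aligned them with OLego to mm10 and deposited expected counts per gene symbol for 12 cortex samples, not normalized; the counting program and annotation are not given in the sources used here. They also deposited ΔI, a score from -1 to 1, with its FDR, an adjusted p-value, for each splicing event, converted to mm9, and these were used as deposited. The authors' log2 fold changes and p-value columns from edgeR were not used. Splicing values of midbrain and hindbrain came from that table, and no counts of that tissue were used.

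Expected counts were rounded and tested with edgeR 4.0.16 in R 4.3.3 (TMM, filterByExpr, quasi-likelihood test, Benjamini-Hochberg adjustment, threshold 0.05), with the 6 samples of a comparison in each fit and all 12 for the difference between knockouts. Errors are SDs over 3 mice or standard errors of the fit, and the labels do not give the litter of each embryo, so p-values measure the spread between these mice. The test was checked on simulated counts. DESeq2 1.42.0, other filters and scalings, a replicate block and leaving out each mouse were alternatives. No columns were identical and Spearman's correlation within groups was 0.983 to 0.997. Exons, lengths and sequences came from the mm9 genome and its GENCODE annotation, handled in Python 3.11.15. Members, partner genes and marker lists were chosen with earlier results of these data known. Named were the members with all their events, the 3 genes most like each in log2 CPM (1 is not reported here), partners that passed the test or had the 2 smallest p-values, partners with an event, and the genes with the largest |ΔI|; *Rab12*, *Cacna2d3*, *Scn9a* and *Stx2* and the marker genes called in *Nova2-/-* were named after their values were seen.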

Additional observations from a re-analysis of the deposited data

Results flagged for a closer look

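The change of *Lmtk3* abundance in *Nova2-/-* cortex differed from that in *Nova1-/-* cortex, by -1.33 ± 0.19 on the log2 scale (SE; the first less the second). In *Nova2-/-* the log2 fold change was -1.18 and in *Nova1-/-* it was 0.14. The difference holds the comparison that chose the family, so it is a description. In that fit 296 of 16210 genes (1.83%) were called, and of the members *Lmtk3* was called and *Lmtk2* (0.18 ± 0.12) and *Aatk* (0.11 ± 0.16) were not. The value lay between -1.45 and -1.19 when each of the 12 mice was left out in turn.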

How the results depend on the processing

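The log2 fold change of *Lmtk3* in *Nova2-/-* stayed between -1.32 and -1.11 when each mouse was left out. The number of genes called moved far more. In *Nova2-/-* it went from 166 to 846 by DESeq2, to 1334 with all 12 samples in the fit and to 7 to 1433 with 1 mouse left out, the highest without wild-type replicate 3 and the lowest without *Nova2-/-* replicate 2. In *Nova1-/-* it went from 2 to 34 by DESeq2, to 1 with at least 10 counts in every sample and to 1 to 10 with 1 mouse left out. Between the wild-type groups it went from 483 to 1333 by DESeq2 and to 3 to 3561 with 1 mouse left out, and for the difference between knockouts from 296 to 851 by DESeq2 and to 113 to 1005. The cause was not tested. Between the wild-type groups, *Aatk* ranged from -0.068 to 0.13 and turned sign without *Nova2* litter replicate 1 or *Nova1* litter replicates 5 (-0.015) or 6 (-0.00068), and *Lmtk3* ranged from -0.18 to 0.045 and turned without replicate 4 of the *Nova1* litters. *Nova1* in *Nova2-/-* ranged from -0.029 (without wild-type replicate 2) to 0.25, and *Nova2* in *Nova1-/-* from -0.069 (without *Nova1-/-* replicate 1) to 0.22. With the longest transcript as the length, *Aatk* was at 8.19 CPM per kb in the wild-type mice of the *Nova1* litters and 7.45 in *Nova1-/-*, and *Lmtk3* at 14.4 in wild-type of the *Nova2* litters and 15.02 in *Nova1-/-*. Counting 1 event per span left 2 *Lmtk3* events. With 400 nt of flank the motif density at the *Lmtk3* exon was 2.31 per 100 nt, which 21.0% of the exons reached.

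With the replicate number as a block in the *Nova2* litters, 220 genes were called and *Lmtk3* was at -1.18. Deviations of the same-numbered mice correlated at 0.120, 0.0056 and 0.158, and *Nova2-/-* replicate 2 correlated best with wild-type replicate 1, so the numbers were not read as a pairing. The *Nova1* litters share no replicate numbers between groups. With 3 mice a group, and ΔI without values for single mice or read counts, small changes of the members could not be told from the spread.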
